A study of Mus musculus with 6 samples.

Results

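The Zfp genes encode zinc finger proteins of many kinds, most of them with fingers of the C2H2 type. Members were the rows of the deposited RPKM table whose symbol is Zfp followed by digits alone, other than the mRNA-decay gene Zfp36, with a mean of at least 2 CPM over the 6 samples. For this rule, CPM is a count scaled to the sample's total of reads in genes. CPM values of single genes and of markers given below are instead TMM-scaled, that is, with the total corrected by a factor that allows for a minority of strongly changed genes. This rule kept 268 of 346 Zfp rows, among 37583 gene rows in all. The other 78 rows fell below the threshold, and 14 of these had 0 reads in every sample. The members were thus chosen by name and by their measured mean CPM, and the level itself is a description. The last members inside the threshold were Zfp607, Zfp953 and Zfp937, at 2.01, 2.01 and 2.10 CPM, and the first genes outside it were Zfp459, Zfp112 and Zfp125, at 1.95, 1.95 and 1.93 CPM.

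The study compared EGFP-positive intercalated cells, the acid- and base-secreting cells of the collecting duct, 2 h after renal ischemia-reperfusion injury (IRI) or after sham surgery. Both groups were B1 VATPase EGFP transgenic mice aged 12 weeks, in which the promoter of the proton pump's B1 subunit marks these cells. There were 3 sham and 3 IRI samples, each pooled from 4 kidneys of 2 mice and sorted in 2 rounds. The labels conflict: the design text names the renal medulla, while the tissue entry reads epididymis and the genotype entry names CX3CR1, and nothing states that the 3 pools of a group were made independently. The p-values below therefore reflect variation among pools, which may be technical.

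Libraries held 17421669 to 24245330 reads in genes. The 10 intercalated cell markers summed to 21038 to 27180 CPM in sham and 21913 to 26498 CPM after IRI, and 2 of them (Atp6v1b1 and Atp6v1c2) were lower. Principal cell markers summed to 11734 to 12696 CPM in sham and 5873 to 11559 CPM after IRI, with 1 of 7 tested lower (Aqp3). Of 14 epididymis markers, 2 passed the filter on low counts and 5 (Lcn5, Lcn8, Cst11, Spag11a and Bsph1) were at 0 in every sample. Macrophage and dendritic cell markers summed to 17.0 to 28.8 CPM in sham and 76.0 to 117 CPM after IRI, and 4 of 10 tested (Cd68, Ptprc, Lyz2 and Cd14) were higher. Thick ascending limb markers summed to 1420 to 2233 CPM in sham and 1000 to 1578 CPM after IRI, with 1 of 6 lower (Kcnj1). Proximal tubule markers summed to 4.01 to 6.56 CPM in sham and 1.79 to 4.78 CPM after IRI, with 1 of 2 tested lower (Lrp2), and of 2 tested fibroblast and pericyte markers 1 was higher (Acta2), with sums of 18.9 to 83.5 CPM in sham and 15.9 to 39.1 CPM after IRI. The part of these markers in the Zfp results was not tested, and in bulk samples fewer cells of a type and less RNA per cell cannot be told apart.

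Zinc finger genes form the largest family of DNA-binding proteins in mammals. Many carry a KRAB domain, which binds the co-repressor Trim28. Trim28 in turn brings the methyltransferase Setdb1 and HP1 proteins, which pack DNA into heterochromatin, and many KRAB proteins silence retroelements in this way. KRAB genes lie in tandem clusters that arose by repeated duplication. Zfp genes without KRAB include activators, co-repressors, and proteins that act on RNA, ribosomes or ubiquitin.

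As a family, the Zfp transcripts were lower after IRI. All 268 members passed the filter on low counts, and 87 were lower, 28 higher and 153 without a call by edgeR's quasi-likelihood test at a Benjamini-Hochberg adjusted p under 0.05. Lower members made up 32.5%, where 21.2% of all 13881 genes tested were lower, and higher members made up 10.4%, where 24.2% of all genes tested were higher. At 2-fold or more, 37 members were lower (13.8%, with 8.5% of all genes) and 10 were higher (3.73%, with 11.5% of all genes). Every IRI sample lay below every sham sample for 110 members (41.0%, with 27.2% of all genes) and above every sham sample for 42 (15.7%, with 29.2% of all genes). The family was proposed with its direction in these data in view, so these counts describe it and carry no test.

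The median log2 fold change of IRI over sham was -0.22 for the members and 0.00 for all genes tested, and 68.7% of members lay below 0. Summed over members and scaled to the total alone, sham samples 1, 2 and 3 held 5215, 4869 and 4778 CPM, and IRI samples 1, 2 and 3 held 4359, 3906 and 3957 CPM. The groups did not overlap. With TMM scaling the sums were 4725, 4614 and 4527 CPM in sham and 4464, 4340 and 4297 CPM after IRI, still without overlap. Per length, the median member stood at 2.76, 2.88 and 2.89 RPKM in sham and 2.34, 2.05 and 2.13 RPKM after IRI. With library size alone in place of TMM, the median of all genes shifted to -0.20 and that of the members to -0.42, and the members split into 17 higher and 114 lower (13% of their calls higher, against 24.3% with TMM). With upper-quartile scaling the split was 20 and 103 (16.3% higher). Over the same settings, the share of all called genes that were higher was 53.3% with TMM, 35.6% with library size alone and 42.0% with upper-quartile scaling. The member median lay 0.20 to 0.28 below the median of all genes in each of the 14 alternatives and the main fit.

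**Figure D1:**
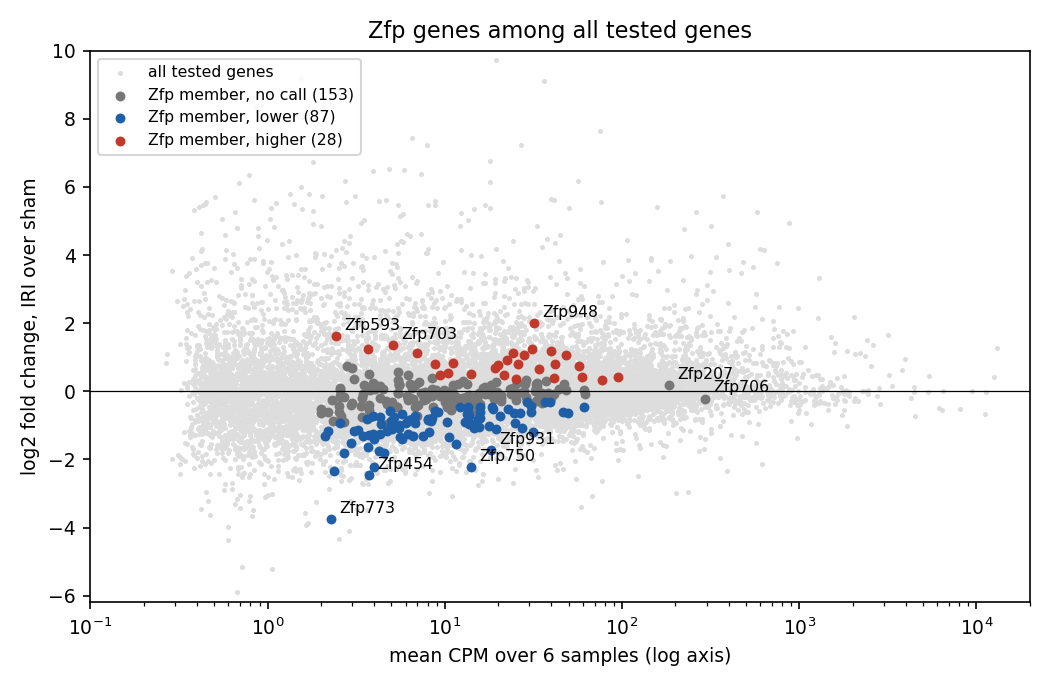
Log2 fold change of IRI over sham against the mean CPM of 6 samples (log axis) for all genes tested (grey dots) and the 268 Zfp members (coloured by call). Blue points, the 87 lower members, reach -3.74 at Zfp773, and red points, the 28 higher members, reach 2.01 at Zfp948.

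Lower calls were most frequent among members of low and middle level. Of 67 members at 2 to 5 CPM, 27 were lower (40.3%, with 24.7% of all genes tested at that level) and 2 were higher, Zfp593 and Zfp597 (2.99%, with 17.3% of all genes). At 5 to 10 CPM, 22 of 66 were lower (33.3%, with 26.9% of all genes) and 4 higher, Zfp654, Zfp429, Zfp26 and Zfp703 (6.06%, with 20.9% of all genes). At 10 to 20 CPM, 23 of 64 were lower (35.9%, with 26.2% of all genes) and 4 higher, Zfp384, Zfp513, Zfp367 and Zfp653 (6.25%, with 22.9% of all genes). With library size alone, Zfp654, Zfp384, Zfp513 and Zfp367 lost their call (log2 0.29, 0.31, 0.32 and 0.50). Of the 71 members at 20 CPM or more, 15 were lower and 18 higher, and their median was -0.0025. At that level 20.9% of all genes tested were lower, next to 21.1% of the members, and 31.2% were higher, next to 25.4% of the members. In 26 members only the sham mean reached 2 CPM, among them Zfp773, Zfp454 and Zfp273, which had the largest decreases. Of these 26, 17 were lower and 0 higher, with a median of -1.23. In 1 member, Zfp593, only the IRI mean reached 2 CPM. The 241 members at or above 2 CPM in both groups held 70 lower and 27 higher, with a median of -0.18.

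Of the 5 most abundant members per length, 1 was called, Zfp330. Zfp706, which encodes a short protein, averaged 66.4 RPKM over the 6 samples, followed by the KRAB gene Zfp386 (50.2 RPKM), the spindle and kinetochore factor Zfp207 (35.4 RPKM), Zfp35 (34.8 RPKM) and the nucleolar protein Zfp330 (30.5 RPKM). Zfp207 and Zfp35, neighbours in this order, were closer to each other than the spread of Zfp207 between samples. Zfp386, Zfp207 and Zfp35 overlapped between groups, with log2 values of 0.03 ± 0.23, 0.18 ± 0.12 and 0.01 ± 0.11 (SE). Zfp706 held 325, 302 and 317 CPM in sham and 246, 282 and 284 CPM after IRI. Every IRI sample was below every sham sample, yet with TMM scaling it had no call (log2 -0.22 ± 0.10, adjusted p = 0.106). Zfp706 was called lower with library size alone (-0.42, adjusted p = 0.00464) and with upper-quartile scaling (-0.34, adjusted p = 0.0208). Zfp330 rose and is described with the nucleolar and ribosomal members.

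Among the 87 lower members, the KRAB gene Zfp773 fell the furthest, and only its sham mean reached the 2 CPM of the member rule. It held 3.65, 4.89 and 3.43 CPM in sham (93, 116 and 63 reads) and 0.269, 0.367 and 0.242 CPM after IRI (6, 8 and 5 reads). The lowest sham sample was far above the highest IRI sample, and the fall was 13.4-fold (log2 -3.74 ± 0.34, adjusted p = 6.58e-05). Of the 50-base stretches of its transcripts, 11.2% also occur in another gene, which makes its level uncertain.

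Zfp750 was the lower member with the smallest p, and it is no KRAB gene: it encodes a transcription factor known for driving terminal differentiation of the epidermis. It stood at 20.9, 26.1 and 19.6 CPM in sham and at 5.12, 4.22 and 4.93 CPM after IRI, 4.67-fold lower (log2 -2.22 ± 0.17, adjusted p = 2.85e-05). The groups were well apart. Zfp931, a KRAB gene of higher level, went from 29.2, 25.1 and 26.4 CPM to 8.22, 7.61 and 8.70 CPM, 3.29-fold lower (log2 -1.72 ± 0.13, adjusted p = 3.01e-05). All 3 IRI samples were below all 3 sham samples. Its 50-base stretches are shared with other genes at 16.7%.

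Other KRAB genes completed the largest decreases. Zfp454 held 5.89, 5.48 and 6.80 CPM in sham and 0.718, 1.60 and 0.966 CPM after IRI (log2 -2.46 ± 0.32, adjusted p = 0.000369). Zfp273 went from 3.76 ± 0.57 to 0.748 ± 0.333 CPM (SD, n = 3 per group; log2 -2.33 ± 0.36, adjusted p = 0.000967 by edgeR), with 24.3% of its stretches shared. Zfp324 had a log2 value of -2.22 ± 0.28 (adjusted p = 0.000327). Zfp759, Zfp763 and Zfp101 fell by 1.83, 1.80 and 1.74 on the log2 scale, with standard errors of 0.30, 0.21 and 0.27. In each of these 6 genes every IRI sample was below every sham sample, and each kept its call without any single library. At least Zfp454 and Zfp273 among them reached the 2 CPM of the member rule in the sham mean alone.

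Among the 28 higher members, the KRAB gene Zfp948 rose the most. It held 13.9, 11.9 and 13.9 CPM in sham and 48.3, 55.9 and 56.4 CPM after IRI. The groups were widely separated, and the rise was 4.03-fold (log2 2.01 ± 0.12, adjusted p = 1.26e-05). Zfp52, its neighbour on the chromosome, went from 20.1, 19.6 and 17.2 CPM to 41.9, 42.4 and 51.4 CPM (log2 1.25 ± 0.13, adjusted p = 0.000114). The KRAB gene Zfp1 went from 18.3, 17.8 and 19.7 CPM to 40.4, 39.4 and 36.4 CPM (log2 1.06 ± 0.11, adjusted p = 0.000131). Both genes more than doubled without overlap.

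Zfp295, which encodes a protein of the BTB type, stood at 16.8, 15.4 and 14.8 CPM in sham and 30.1, 35.7 and 37.2 CPM after IRI (log2 1.13 ± 0.13, adjusted p = 0.000204). The KRAB gene Zfp655 rose from 32.0 ± 2.32 to 67.4 ± 11.4 CPM (SD, n = 3 per group; log2 1.08 ± 0.14, adjusted p = 0.000389 by edgeR). Zfp26 and Zfp597, 2 further KRAB genes, had log2 values of 1.14 ± 0.18 and 1.23 ± 0.23. All IRI samples of these 4 genes exceeded all sham samples. For Zfp597, 27.1% of exonic bases lie under a gene on the opposite strand. The sources used here do not state whether reads were counted by strand, so its level is uncertain.

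Zfp185 encodes a protein that has a LIM domain and is found at the actin cytoskeleton. It held 31.6, 20.2 and 21.4 CPM in sham and 81.4, 55.4 and 31.3 CPM after IRI, and its groups overlapped. Its call (log2 1.2 ± 0.36, adjusted p = 0.0320) was lost without IRI replicate 1 (0.83, adjusted p = 0.0646), IRI replicate 2 (1.19, adjusted p = 0.0823), sham replicate 2 (1.07, adjusted p = 0.115) or sham replicate 3 (1.08, adjusted p = 0.112), with library size alone (1.00, adjusted p = 0.0701) and without the filter on low counts (1.16, adjusted p = 0.146).

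**Figure D2:**
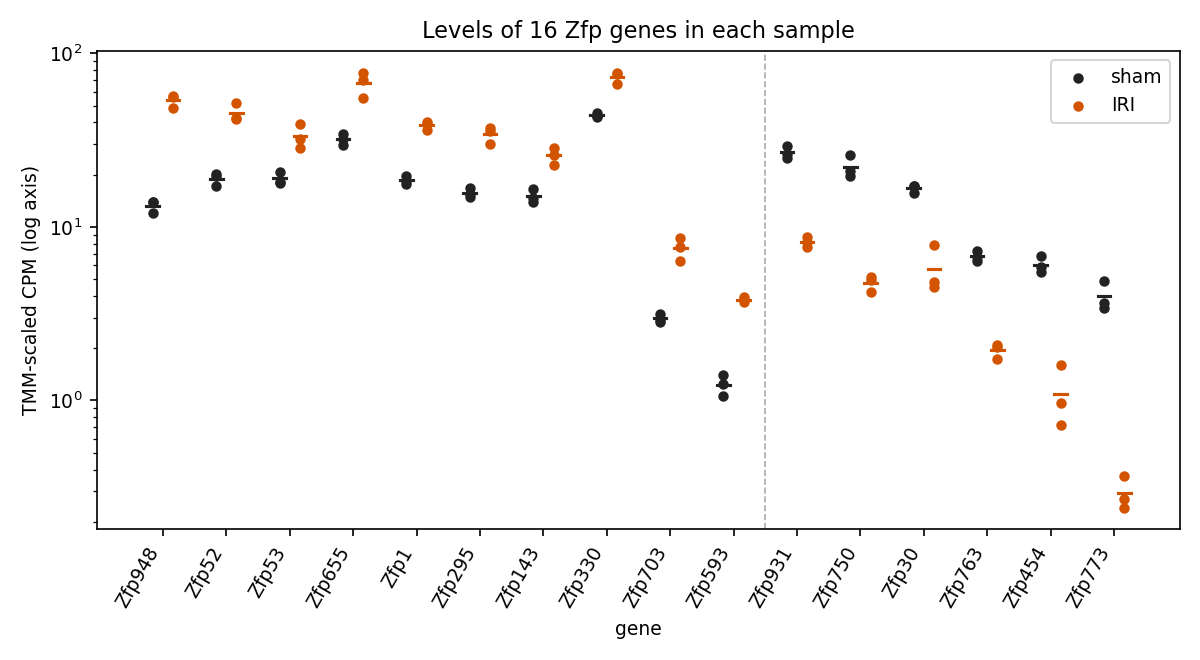
TMM-scaled CPM (log axis) of 16 Zfp members in each sham (black) and IRI (orange) sample, with bars at group means; higher members stand left of the dashed line and lower members right of it. The IRI points of Zfp948 lie at 48.3 to 56.4 CPM above sham points at 11.9 to 13.9, and those of Zfp773 at 0.242 to 0.367 below sham points at 3.43 to 4.89.

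Across all called members, 16 of the 28 higher and 61 of the 87 lower kept their call in each of the 14 alternative settings that tested them. The stricter filter on low counts tested 214 of the 268 members and left out some of few reads, such as Zfp593 and Zfp773. The 16 were Zfp948, Zfp593, Zfp703, Zfp52, Zfp597, Zfp26, Zfp295, Zfp655, Zfp1, Zfp64, Zfp653, Zfp53, Zfp945, Zfp143, Zfp330 and Zfp800. No call reversed its direction in any of these settings. Groups overlapped in 2 of the 28 higher members, Zfp185 and Zfp367.

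**Figure D3:**
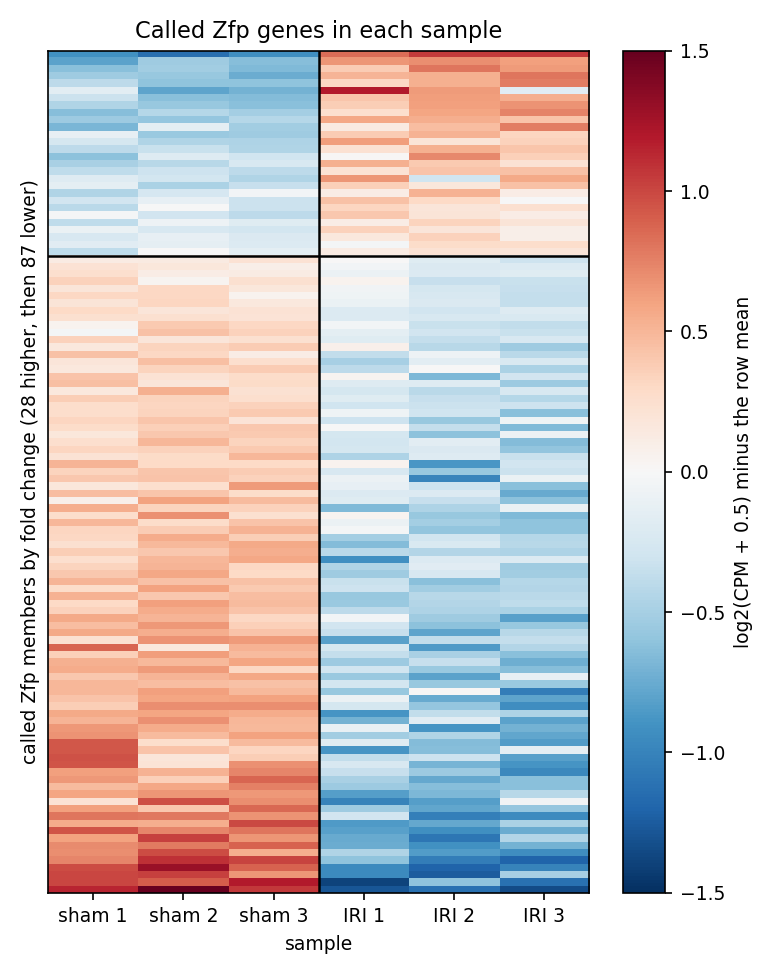
Each row is 1 of the 115 called Zfp members, ordered by fold change, and each column 1 sample; colour gives log2(CPM + 0.5) minus the row mean. The 28 higher members above the black line are red in the IRI samples and the 87 lower members below it are blue there, with paler single samples such as Zfp185 in IRI 3.

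A KRAB domain was found in the translated GENCODE sequence of 144 members, of which 48 were lower (33.3%) and 10 higher (6.94%), with a median log2 fold change of -0.29 and 75.7% below 0. No KRAB domain was found in 117, of which 36 were lower (30.8%) and 18 higher (15.4%), with a median of -0.18 and 58.1% below 0. For 7 members no coding sequence was found, and 3 of these were lower (Zfp950, Zfp799 and Zfp870). Summed levels of KRAB members, TMM-scaled, were 1795, 1764 and 1720 CPM in sham and 1672, 1636 and 1619 CPM after IRI. Those without KRAB summed to 2878, 2796 and 2758 CPM in sham and 2755, 2667 and 2642 CPM after IRI. Both sums were lower in every IRI sample than in every sham sample. The difference between members with and without KRAB was not tested.

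Of 42 members with 0 to 3 fingers by a strict C2H2 pattern, 11 were higher (26.2%) and 9 lower (21.4%), shares close to those of all genes tested (24.2% and 21.2%). With 4 to 9 fingers, 9 of 82 were higher (11%) and 29 lower (35.4%). With 10 to 14, 4 of 87 were higher (Zfp672, Zfp429, Zfp64 and Zfp52) and 30 lower (34.5%), and with 15 to 36, 4 of 50 were higher (Zfp945, Zfp53, Zfp26 and Zfp948) and 16 lower (32%). Differences between these groups were not tested, and Zfp672 lost its call with library size alone (0.14). Members that matched a short sequence pattern of the SCAN domain, a dimerization module, numbered 10. The pattern may miss other members with this domain, and no profile was built for it. Of the 10, 5 were lower (50%) and 0 higher by edgeR, where 21.2% of all genes tested were lower and 24.2% higher. None of the 10 had a positive value with an unadjusted p below 0.05 or a higher call in DESeq2 or limma-voom. Zfp191 went from 59.5 ± 2.46 to 38.2 ± 3.26 CPM (log2 -0.64 ± 0.10), Zfp444 fell by 0.72, Zfp449 by 1.11, Zfp213 by 0.88 and Zfp397 by 0.32 on the log2 scale. Zfp213 lost its call without IRI replicate 2 or sham replicate 3 (adjusted p up to 0.0528), and 56.6% of its exonic bases lie under an opposite-strand gene. Zfp397 lost its call without IRI replicates 2 or 3 or any sham replicate (adjusted p up to 0.112).

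Of 34 listed regulators and cofactors without KRAB, 28 were members, and 8 of them were lower (28.6%, with 21.2% of all genes tested) and 4 higher (14.3%, with 24.2% of all genes). Besides Zfp750, the lower ones included Zfp503, a co-repressor of the NET family, which went from 44.7, 27.1 and 35.1 CPM to 20.1, 13.2 and 17.7 CPM (log2 -1.07 ± 0.21, adjusted p = 0.00407). Its paralogue Zfp703, a co-repressor known from luminal breast cancer, moved the other way, from 2.91, 3.16 and 2.83 CPM to 6.38, 8.66 and 7.68 CPM (log2 1.35 ± 0.20, adjusted p = 0.000816). Neither gene's groups overlapped, and per length Zfp503 stood above Zfp703 in sham (6.33 and 0.910 RPKM) and close to it after IRI (2.94 and 2.26 RPKM).

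Zfp362 held 15.8, 16.2 and 17.9 CPM in sham and 9.03, 8.84 and 8.65 CPM after IRI (log2 -0.91 ± 0.13, adjusted p = 0.000760). Zfp395, a factor that binds the huntingtin promoter, fell by 1.06 on the log2 scale, and Zfp651, Zfp467, Zfp827 and Zfp238 fell by 0.93, 0.60, 0.59 and 0.57. Zfp238, a BTB repressor known from the developing brain, lost its call without any single library other than IRI replicate 1 (adjusted p up to 0.0890). The activator Zfp143, which binds the promoters of many housekeeping and small nuclear RNA genes, rose from 13.8, 14.6 and 16.5 CPM to 28.6, 25.9 and 22.8 CPM. No sham sample reached the IRI range (log2 0.78 ± 0.14, adjusted p = 0.00190). Zfp592 (0.49 ± 0.14) and Zfp384 (0.51 ± 0.16) were also higher. Zfp592 lost its call without IRI replicate 1 or sham replicates 1 or 3 (adjusted p up to 0.101), and Zfp384 without IRI replicates 1 or 2 or sham replicates 1 or 3 (adjusted p up to 0.125), with 13.1% of its stretches shared. Neither was called with library size alone (0.29 and 0.31) or with upper-quartile scaling (0.37 and 0.39). Zfp410, the activator of the chromatin remodeller gene Chd4, was at 43.8 ± 2.75 and 51.0 ± 5.55 CPM (log2 0.22 ± 0.11, adjusted p = 0.147 by edgeR, n = 3 per group), and Chd4 itself had a log2 value of 0.20 ± 0.09 (adjusted p = 0.109).

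Members known for work on RNA, ribosomes, ubiquitin or the spindle numbered 16, of which 5 were higher (31.2%) and 4 lower (25%), near the shares of all genes tested (24.2% and 21.2%). Zfp330, a nucleolar protein, went from 43.4, 45.6 and 43.1 CPM to 66.1, 76.2 and 76.7 CPM (log2 0.73 ± 0.10, adjusted p = 0.000526). Zfp593, the counterpart of a yeast factor for export of the large ribosomal subunit, went from 1.06, 1.39 and 1.25 CPM to 3.82, 3.94 and 3.67 CPM (log2 1.62 ± 0.26, adjusted p = 0.00106). Both rose without overlap, but 77.9% of the exonic bases of Zfp593 lie under a gene on the opposite strand, so its reads cannot be assigned with certainty.

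The ribosome biogenesis factor Zfp622, the translation-factor chaperone Zfp259 and the ubiquitin ligase Zfp91 were higher by less, with log2 values of 0.43, 0.41 and 0.40 (SE 0.11, 0.10 and 0.11). None of these 3 was called with library size alone (0.23, 0.21 and 0.20) or without sham replicate 3 (0.40, 0.34 and 0.35), and Zfp622 and Zfp91 lost the call without IRI replicate 2 (0.35 and 0.30) or sham replicate 1 (0.32 and 0.35) as well. Zfp768, a DNA-binding protein with repeats like those of RNA polymerase II, fell from 36.4, 45.9 and 45.7 CPM to 23.3, 18.6 and 14.4 CPM (log2 -1.18 ± 0.18, adjusted p = 0.000985). The double-stranded RNA binder Zfp346 fell by 0.81, Zfp318 by 0.78 and Zfp277 by 0.32 on the log2 scale. Zfp318 was not called without any 1 sham replicate (adjusted p up to 0.0787), nor Zfp277 without any single library other than IRI replicate 1 (adjusted p up to 0.124).

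Of 18 listed KRAB genes with a known role at retroelements, imprinted genes or promoters, 13 were members, and 6 were lower (46.2%, with 21.2% of all genes tested) and 1 higher. Zfp30, which controls a neutrophil chemokine in the lung, held 17.3, 17.1 and 15.7 CPM in sham and 7.81, 4.49 and 4.78 CPM after IRI (log2 -1.55 ± 0.22, adjusted p = 0.000625). Zfp961, which recognizes the primer binding site of some retroviruses, went from 22.7, 25.8 and 21 CPM to 13.3, 10.4 and 10.9 CPM (log2 -1.01 ± 0.15, adjusted p = 0.000779). Zfp157 went from 21.2, 20.8 and 19.2 CPM to 11, 7.97 and 10.5 CPM (log2 -1.05 ± 0.16, adjusted p = 0.000814). All 3 genes were lower in each IRI sample than in each sham sample.

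Zfp932, Zfp74 and Zfp708 fell by 0.91, 0.84 and 0.72 on the log2 scale. Zfp932 shares 45.2% and Zfp708 100% of its stretches with other genes, and Zfp708 lost its call without IRI replicates 1 or 2 or sham replicates 2 or 3 (adjusted p up to 0.0999). A second row with the symbol Zfp708, under the 2 CPM threshold, had no call (log2 -0.998 ± 0.468, adjusted p = 0.113). Zfp429 was the only listed gene called higher (0.79 ± 0.22, adjusted p = 0.0180), with 25.3% of its stretches shared and no call without IRI replicate 2 (0.57) or sham replicates 1 (0.64) or 3 (0.79). Zfp809, which silences murine leukemia virus in stem cells, had a log2 value of 0.11 ± 0.14 (adjusted p = 0.565), Zfp445, which guards imprints, -0.04 ± 0.18, and Zfp568, which represses placental Igf2, 0.51 ± 0.23 (adjusted p = 0.0960). Zfp68 was the most abundant of those without a call, at 63.7 ± 3.34 and 59.9 ± 2.34 CPM, and was called lower with library size alone (-0.29, adjusted p = 0.0391).

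The machinery that KRAB proteins use had few calls. Of 31 listed genes, 30 rows were tested (Atf7ip has 2 identifiers, and Atf7ip2 and Fam208a did not enter the test), with 5 higher (16.7%, with 24.2% of all genes), 4 lower (13.3%, with 21.2% of all genes) and a median of -0.05. With library size alone the list held 3 higher and 9 lower, and with upper-quartile scaling 7 were lower. Trim28, the shared co-repressor, stood at 66.1, 44.5 and 48.0 CPM in sham and 44.7, 42.7 and 32.3 CPM after IRI. The groups overlapped, and there was no call (log2 -0.41 ± 0.18, adjusted p = 0.0961). Trim28 was called lower with library size alone (-0.61, adjusted p = 0.0319) and with upper-quartile scaling (-0.53, adjusted p = 0.0356). Setdb1 overlapped too (0.02 ± 0.22, adjusted p = 0.962).

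The replacement histone gene H3f3b rose from 551, 505 and 540 CPM to 1130, 1357 and 1347 CPM (log2 1.27 ± 0.11, adjusted p = 6.53e-05), while H3f3a, which encodes the same protein, had a log2 value of -0.11 ± 0.12. Uhrf1 (1.22) and Dnmt1 (0.63), which maintain DNA methylation, and Morc2a (0.55) were higher as well. On the lower side were Mphosph8 of the HUSH silencing complex (-0.55 ± 0.11, adjusted p = 0.00333), the HP1 gene Cbx5 (-0.38), Hdac2 (-0.45) and Suv39h1 (-0.56). With library size alone, Dnmt1 (0.43) and Morc2a (0.35) were not called. Dnmt1 lost its call without IRI replicates 1 or 2 or sham replicates 1 or 3 (adjusted p up to 0.0877), Morc2a without sham replicate 3 (0.0610), Hdac2 without IRI replicates 1 or 3 or sham replicate 3 (up to 0.0792), and Suv39h1 without any single library other than IRI replicate 2 (up to 0.141). Atrx, at 141 ± 11.4 and 126 ± 13 CPM, had no call.

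Of 15 tested Zkscan and Zscan genes, most of which carry KRAB or SCAN domains, 6 were lower (40%) and 2 higher (13.3%), with a median of -0.35. Of all genes tested, 21.2% were lower and 24.2% higher. Of 19 tested Zfp genes with a letter after the number, 6 were lower (31.6%) and 2 higher (10.5%), close to the members' shares, with a median of -0.32. Of 34 tested Zbtb genes, which carry a BTB domain, 5 were lower (14.7%) and 6 higher (17.6%), both under the shares of all genes, with a median of 0.05. No test compared these families with the members.

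**Figure D4:**
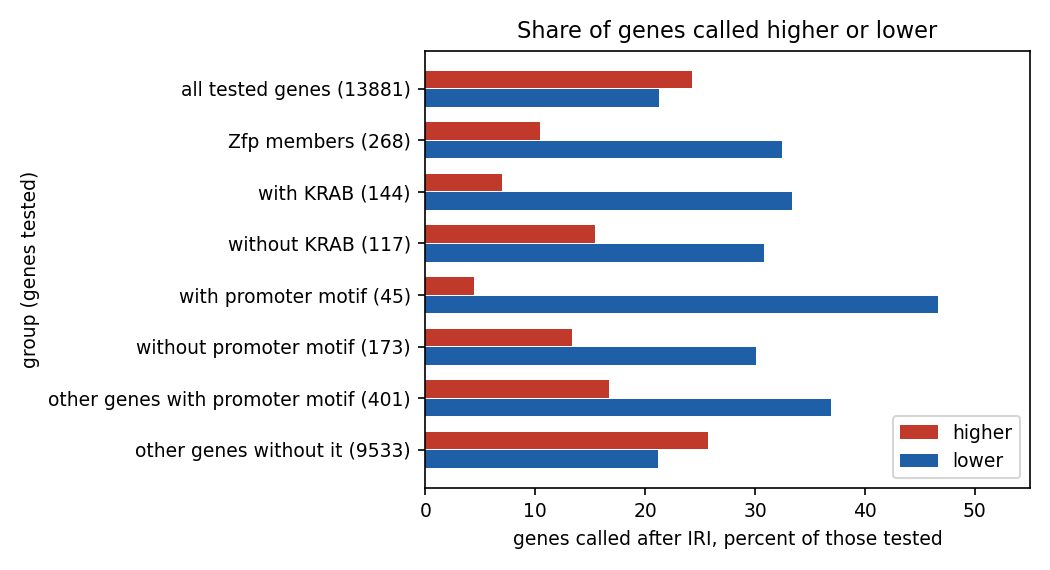
Percent of tested genes called higher (red) or lower (blue) after IRI in each group, with the number tested in brackets; the promoter motif is the one searched below, among genes with a promoter in the RefSeq table. Lower calls reach 46.7% of Zfp members with the motif and 36.9% of other genes with it, next to 21.1% of other genes without it.

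By the RefSeq gene order (GRCm38.p6), 260 members were placed, and 90 pairs were neighbours with at most 1 other protein-coding gene between them. Of these pairs, 62 had the same sign of log2 fold change, and 14 were both called lower, 2 both higher and 1 opposite in call. With 68.7% of single members below 0, many pairs of any members share a sign, and the share for pairs that are not neighbours was not computed. There were 10 runs of at least 4 members with at most 1 other protein-coding gene between them, holding 61 members. The runs from Zfp677 to Zfp948 and from Zfp560 to Zfp846 held 0 lower. Of all members 32.5% were lower and 10.4% higher, and of all genes tested 21.2% and 24.2%. In the run of 12 from Zfp84 to Zfp146, picked after its values were seen, 8 were lower and 0 higher by edgeR. DESeq2, limma-voom and the unadjusted p below 0.05 gave 0 higher there as well.

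That run was led by Zfp30 (-1.55 ± 0.22) and Zfp566 (-1.24 ± 0.25), followed by Zfp940 (-0.93), Zfp74 (-0.84), Zfp27 (-0.82), Zfp790 (-0.60), Zfp420 (-0.59) and Zfp260 (-0.33). Zfp568, in the middle of the run, had a positive value (0.51 ± 0.23) without a call. Of the 8, Zfp30, Zfp566, Zfp74 and Zfp27 kept their call without any single library. Zfp940 lost it without sham replicate 2 (-0.86, adjusted p = 0.0651), Zfp790 without IRI replicates 1 or 3 or sham replicates 2 or 3 (adjusted p up to 0.0728), and Zfp420 and Zfp260 without any library other than IRI replicate 1 (up to 0.119 and 0.0797). Of 4 members from Zfp472 to Zfp563, 3 were lower: Zfp763 as above, Zfp563 from 7.14 ± 0.54 to 3.62 ± 0.13 CPM (log2 -0.98 ± 0.18) and Zfp952 from 16.2 ± 0.73 to 10.2 ± 2.05 CPM (log2 -0.66 ± 0.17).

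A graded pattern appeared in the run of 6 consecutive KRAB genes that ends with Zfp948. In chromosomal order the log2 values were -0.30 ± 0.17 for Zfp677, -0.04 ± 0.14 for Zfp54, -0.04 ± 0.12 for Zfp51, 0.80 ± 0.14 for Zfp53, 1.25 ± 0.13 for Zfp52 and 2.01 ± 0.12 for Zfp948. The last 3 were called and the first 3 were not. Zfp53 held 20.8, 18.2 and 18 CPM in sham and 39.0, 28.6 and 32.0 CPM after IRI, without overlap (adjusted p = 0.00213). Few 50-base stretches of Zfp53, Zfp52 and Zfp948 are shared with other genes (0.50%, 0.87% and 0.12%). Among the 5 members from Zfp560 to Zfp846, Zfp26 alone was called, and its neighbours had log2 values of 0.15 ± 0.10 (Zfp560) and 0.13 ± 0.14 (Zfp426).

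**Figure D5:**
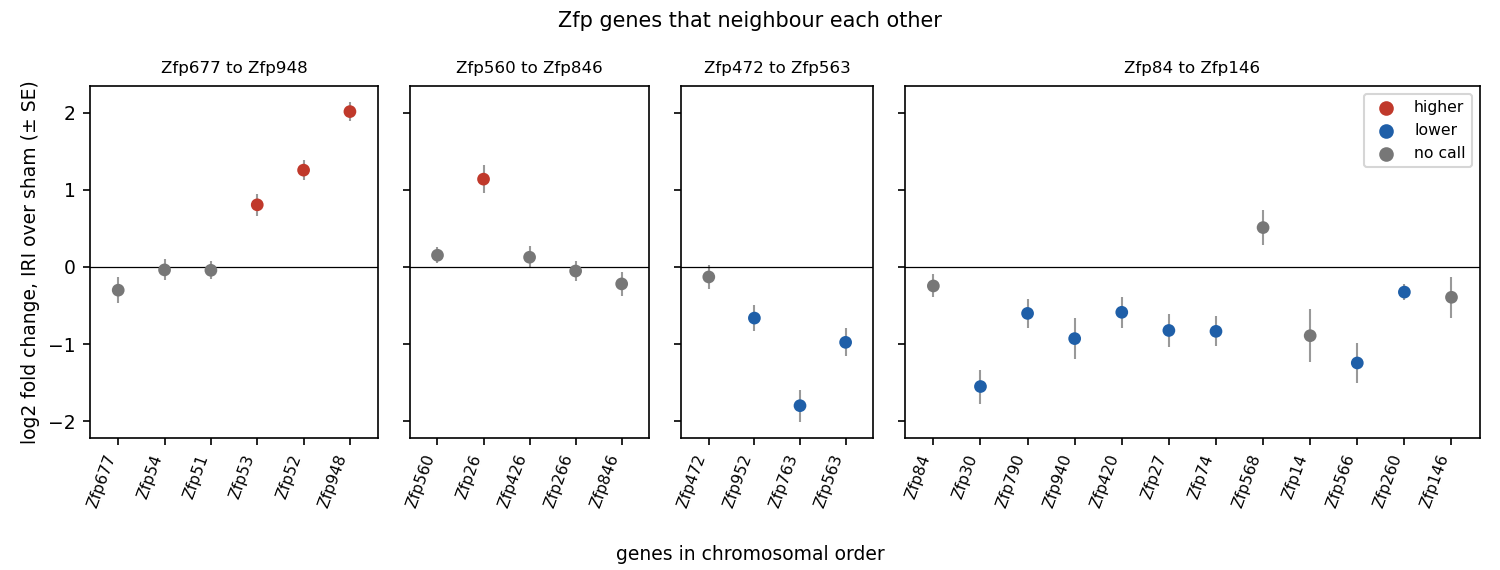
Log2 fold change of IRI over sham with its SE for 4 runs of neighbouring Zfp members in chromosomal order (distances not to scale), coloured by call. Values climb from -0.30 at Zfp677 to 2.01 at Zfp948 in the first run, only Zfp26 is called in the second, and 3 of 4 and 8 of 12 members are lower in the third and the last.

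Promoters of these tandem genes are related in sequence. Segments are shown for 4 of them because their members range from no call to the largest rise. They come from RefSeq (GRCm38.p6) windows of 250 bases before to 50 after each start. All segments printed here and below lie before the start. Capitals mark runs of at least 12 bases shared with another of the 4 promoters. The segments are chr17:21423040-21423063 (Zfp54), chr17:21488773-21488900 (Zfp53), chr17:21535412-21535510 (Zfp52) and chr17:21566738-21566952 (Zfp948), all on the + strand.
Zfp54: tcctgTCAGATCCAGTTCTagtct
Zfp53: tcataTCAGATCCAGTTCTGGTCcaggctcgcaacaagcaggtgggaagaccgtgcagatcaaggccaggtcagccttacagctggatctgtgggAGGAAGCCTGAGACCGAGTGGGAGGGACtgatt
Zfp52: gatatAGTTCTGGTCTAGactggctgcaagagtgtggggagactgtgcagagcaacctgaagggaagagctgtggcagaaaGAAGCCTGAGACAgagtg
Zfp948: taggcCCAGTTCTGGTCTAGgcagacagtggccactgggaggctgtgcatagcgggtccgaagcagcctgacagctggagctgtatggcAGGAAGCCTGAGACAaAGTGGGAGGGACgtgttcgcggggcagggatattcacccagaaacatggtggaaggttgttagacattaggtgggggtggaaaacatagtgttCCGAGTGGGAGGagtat

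In local alignments of the 250 bases before each start, identity was 78.3% to 82.9% over 70 to 200 bases for the 6 pairs of these 4 promoters. Zfp54, which had no call, shared 79.0% with Zfp53 and 82.1% with Zfp52, both higher. With 4 genes, no relation between promoter likeness and calls was tested.

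A second set of letters recurred in promoters of the lower members. The letters ACTACA, any 3 bases and CCCA, the core of the motif recognized by Zfp143, were searched on both strands of the RefSeq promoter windows, after the promoters and the fold changes had been seen. They occurred in 524 of 27025 promoters of all genes (1.94%) and in 45 of the 218 members with a promoter (20.6%). These 2 shares are not alike: only 10152 genes with a promoter were tested, while all 218 members were. Of tested genes that are no members, 401 held the letters and 9533 did not. Among members the letters were in 21 of 73 lower (28.8%), 22 of 120 without a call (18.3%) and 2 of 25 higher (8.0%). The segments below hold them in capitals, on either strand, for 4 of the largest decreases, for Zfp566 and Zfp74 of the long run, and for both higher members that have them. They lie at chr7:7136791-7136831 (- strand), chr11:50887652-50887692 (-), chr13:67813734-67813774 (+), chr13:67128161-67128201 (+), chr7:30090560-30090600 (-), chr7:29954091-29954131 (-), chr8:111643402-111643442 (+) and chr13:67399813-67399853 (-), in the order printed.
Zfp773: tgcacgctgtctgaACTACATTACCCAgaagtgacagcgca
Zfp454: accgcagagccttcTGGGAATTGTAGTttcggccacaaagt
Zfp273: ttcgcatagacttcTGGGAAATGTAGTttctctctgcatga
Zfp759: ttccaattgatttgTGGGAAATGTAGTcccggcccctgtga
Zfp566: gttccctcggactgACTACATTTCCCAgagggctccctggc
Zfp74: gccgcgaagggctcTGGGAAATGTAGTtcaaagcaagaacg
Zfp1: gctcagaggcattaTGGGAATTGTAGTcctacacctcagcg
Zfp429: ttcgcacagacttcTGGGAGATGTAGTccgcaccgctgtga

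Read by promoter, 21 of 45 members with the letters were lower (46.7%) and 2 higher (Zfp1 and Zfp429), with a median log2 fold change of -0.54. Of 173 members without them, 52 were lower (30.1%) and 23 higher, with a median of -0.17. The letters also marked genes that are no members: of 401 tested with them, 148 were lower (36.9%) and 67 higher (16.7%, median -0.24), and of 9533 without them, 2015 were lower (21.1%) and 2448 higher (25.7%, median 0.01). Among members without KRAB, 6 of 10 with the letters were lower and 0 higher by edgeR, with 0 higher also by DESeq2, by limma-voom and at an unadjusted p below 0.05. Of KRAB members, 15 of 35 with the letters and 29 of 95 without them were lower. These shares are descriptions of letters in a window, found in the same data, and say nothing of binding.

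In all, 9 strings were searched. Shares of all genes or all promoters are over the 27025 genes with a promoter, which include genes that were not tested, unlike the members. The ETS core CCGGAAG was in 23.9% of member promoters and 9.93% of all promoters, with 10 of 25 higher members and 12 of 73 lower ones. The GC box GGGCGG was in 50.9% of members and 38.2% of all genes, with 18 of 25 higher and 29 of 73 lower members. The palindromic cAMP-response element, TGAC followed by GTCA, was in 3 of 25 higher and 2 of 73 lower members, and in 2.03% of all promoters. The AP-1 string TGANTCA was in 4.59% of members and 8.97% of all genes. The STAT string was in 5.96% of members and 1.35% of all genes (2 of 25 higher and 3 of 73 lower members), and the NRF1 string in 11.5% and 5.19% (4 of 25 and 10 of 73). CCAAT was in 49.5% of members and 41.1% of all genes (12 of 25 and 39 of 73), and the NF-kB string in 0.917% and 0.466%, with 0 called members. In letters, STAT is TTCC, any base and GGAA, NRF1 is GCGC, any base and TGCGC, and NF-kB is GGGA, any base and TTTCC. All were searched on both strands, and they can overlap each other.

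Members share sequence, which makes single values uncertain where reads could be assigned to more than 1 gene. At least 10% of 50-base stretches were shared with other genes in 32 of 261 members with a GENCODE M21 transcript, of which 9 were lower and 3 higher (Zfp384, Zfp429 and Zfp653), and the median member shared 0.084%. At least 25% of exonic bases lay under an opposite-strand gene in 9 members, among them Zfp784 (94.8%), which fell by 1.08 on the log2 scale.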

How the data were processed

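RNA of sorted EGFP-positive cells was measured by sequencing in 3 sham and 3 IRI samples. The deposited per-sample files hold whole-number counts of reads per gene, and the deposited RPKM table gives symbols, gene lengths and RPKM values computed by the authors from such counts, per the file headers. The submitters' processing notes name STAR, HTSeq, edgeR and mm9, without the role or version of each, which the sources used here do not give. Entries that name no gene took 49.3% to 50.9% of reads and were left out.

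Counts were tested with edgeR 4.0.16 (R 4.3.3): filterByExpr, TMM factors and the robust quasi-likelihood test of IRI against sham over 13881 genes, with Benjamini-Hochberg adjustment over all of them, called at an adjusted p under 0.05. Every adjusted p in the text is from edgeR unless another tool is named. SE is the absolute log2 fold change divided by the root of the F statistic. The biological coefficient of variation was 19.0%. The scripts were tested on simulated data. Libraries of a group differed beyond sampling noise, and all 6 were kept. Mean ± SD are over 3 samples in TMM-scaled CPM, and the member rule and level classes use CPM of the gene total.

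Alternatives were DESeq2 1.42.0, limma-voom (limma 3.58.1), other scalings and filters, a replicate block, other CPM thresholds, and leaving out each library. KRAB domains were found with a profile (HMMER 3.4, E 0.001, 131 seed windows of 37 residues) in translated GENCODE M21 coding sequences. The profile was added after the files were read, because a sequence pattern missed known KRAB genes, and the pattern is an alternative. Promoters were matched by symbol to RefSeq windows for 218 members.

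The members, the role lists and the motifs were chosen with earlier results of these data known. The rule for named genes took the 8 called members with the largest change and the 4 with the smallest p in each direction, the 5 highest by mean RPKM, up to 3 called genes and 1 without a call from each role list with Trim28 and Setdb1, the genes beside the threshold, and members of groups counted at 5 or fewer. Genes named outside it, in the runs, for lost calls, shared sequence or promoter letters, or as further list members, were picked after their values were seen. The values of 1 listed machinery gene are not reported here.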

Additional observations from a re-analysis of the deposited data

How the results depend on the processing

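Lower members outnumbered higher ones in the fit with TMM scaling and in the 14 alternatives, but not among members of 20 CPM or more, and the number of higher calls moved with scaling and with single libraries. With library size alone, 17 members were higher, as were 8 without KRAB, while 3 machinery genes were higher and 9 lower, and the member median was -0.42. With upper-quartile scaling, 11 members without KRAB were higher, 7 machinery genes were lower, and the median was -0.35. Requiring a mean of 5 CPM gave a median of -0.17. Requiring 20 CPM left 18 higher and 15 lower, with a median of -0.0025, so the direction of the family rests on members under that level. Leaving out 1 library gave 16 (without sham replicate 3) to 26 higher members, 8 to 17 higher without KRAB, 3 to 5 higher and 2 to 4 lower machinery genes, and medians of -0.28 to -0.21. Lower calls ranged from 68 to 93. For single genes, 4266 values kept their side of the threshold, 230 lost a call, 124 gained one and 0 reversed. Depth limits genes of few reads: Zfp773 rests on 5 to 8 reads in each IRI sample.

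The labels give no shared animal, litter or day for equal replicate numbers, so the main fit had no block. Deviations from the group means correlated at 0.18, 0.095 and 0.18 between same-numbered samples. Between other samples they correlated at -0.17 to 0.030, so every sample correlated best with its own number. Whether the samples were paired was not tested. With the replicate block, 26 members were higher and 89 lower, with a median of -0.24, and Trim28 was called lower (-0.40, adjusted p = 0.0445). Of the genes named with values, Zfp277 (-0.32, adjusted p = 0.0632), Zfp420 (-0.61, adjusted p = 0.0537) and Zfp296 (2.16, adjusted p = 0.0792) had no call with the block, and neither had Zfp367 (0.64, adjusted p = 0.0521).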

Other observations

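Among Zfp genes under the threshold of 2 CPM, 41 passed the filter on low counts. By edgeR, 13 were lower (31.7%, with 21.2% of all genes tested) and 2 higher (4.88%, with 24.2% of all genes). Their median log2 fold change was -0.71. A gene can pass this filter on the samples of 1 group alone, so the selection may shape that median. Zfp493 had 57, 51 and 42 reads in sham and 13, 9 and 3 after IRI (log2 -2.52 ± 0.45, adjusted p = 0.00196), and Zfp879 had 76, 53 and 44 reads in sham and 7, 20 and 12 after IRI (log2 -2.07 ± 0.40, adjusted p = 0.00324). Zfp697 rose from 0.904, 1.10 and 0.653 CPM to 3.73, 2.06 and 2.46 CPM (log2 1.62 ± 0.35, adjusted p = 0.00546). Zfp296 had 2, 10 and 15 reads in sham and 45, 62 and 15 after IRI, and its call (2.13 ± 0.74, adjusted p = 0.0447) was lost without IRI replicates 1 or 2 or sham replicates 1 or 2 and with library size alone (1.94, adjusted p = 0.053). These genes were picked after their values were seen.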
